A study of Mus musculus with 72 samples.

Results

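The genes described here encode the proteins of the cytosolic ribosome, measured in mouse liver after exposure to tertiary butyl alcohol (TBA). They were chosen by name: every measured symbol that begins with Rpl or Rps and a digit, plus Rplp0, Rplp1, Rplp2 and Rpsa, without the kinases of the Rps6k family and without pseudogenes. This gave 83 of 21400 measured symbols, made up of 45 large-subunit genes, 29 small-subunit genes and 9 paralogs or other genes that the name rule takes in, such as Rpl22l1, Rps27l and Rps19bp1. Where a gene had several probes, the one counted most on average stands for it. The name rule uses no measured difference between groups, but the genes were chosen with earlier results of these data known.

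The livers came from single-housed female B6C3F1 mice, a hybrid laboratory strain, aged 9 to 11 weeks. They drank water holding TBA at 10, 20 or 40 mg/mL over 14 d or 28 d, and control mice of each duration received 0 mg/mL, with 9 animals in each of the 8 groups. RNA in liver that had been fixed in formalin, embedded in paraffin, sectioned and scraped off slides was measured by TempO-Seq, in which a pair of adjoining probes is ligated on its target RNA and counted by sequencing. The series title asks whether thyroid follicular cell adenomas in female mice arise through an anti-thyroid mode of action, and the liver was its measured tissue here.

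Of the 72 libraries, 1 of the 40 mg/mL group at 14 d (replicate 5) held 10796 counts and was left out, which leaves 8 libraries in that group. Totals of the other 71, in units of M (mega) counts, were 7.77 to 12.7 M. The tissue label was checked on 8 hepatocyte markers, which all passed the filter on low counts and summed to 38680 to 56170 CPM in the 14 d controls, where CPM are counts per 1000000 of the scaled library total. Levels of different genes are not compared, because each rests on the capture of its own probe. Many of these genes have near-identical processed copies elsewhere in the genome, and whether a probe also captures such a copy was not tested.

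A ribosome is built from a small subunit, which reads the messenger RNA, and a large subunit, which joins amino acids, and each carries many small basic proteins on ribosomal RNA. Most of these proteins are present once in each ribosome, so cells make them in matched amounts. Many of those messenger RNAs begin with a C followed by an unbroken stretch of C and U (T in the genome), the terminal oligopyrimidine or TOP start, through which mTORC1 and the RNA-binding protein Larp1 control their translation and stability.

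RefSeq promoter sequences of build GRCm38.p6, each 250 bases before and 50 after an annotated start, were found for 63 of the 83 genes. Windows of 30 bases are shown for the 6 genes with the smallest p-values at 40 mg/mL for 14 d that have a sequence, for the 3 subunit genes with the smallest changes there, and for 1 paralog. Capitals mark the longest unbroken run of C and T within 25 bases either side of the annotated start, on the gene's own strand and written 5′ to 3′.
Rps24: ccgcgctggggTCCTTCCTTgcgcgttgat
Rps23: ggctgggcggggCTTCCCgcaatgccttgt
Rpl28: gcctctcgtgTCTCTCTTTCCgtctccggc
Rpl22: aatatcagcgctgCTTCTggaatgttccag
Rps12: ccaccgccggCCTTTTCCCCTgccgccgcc
Rps3a1: tagtgtcgcgagaTTCTTaaagccggaagg
Rpl27: ccggaacgctctgTTCCTgtctgctgctcg
Rpl18: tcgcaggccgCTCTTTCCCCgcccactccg
Rpl19: ggggcttgggCTCTCCCCTTCgcagataat
Rpl22l1: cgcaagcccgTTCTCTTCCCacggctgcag

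The windows lie at chr14:24490664-24490693 on the plus strand (Rps24), chr13:90923113-90923142 on the plus strand (Rps23), chr7:4792952-4792981 on the plus strand (Rpl28), chr4:152324413-152324442 on the plus strand (Rpl22) and chr10:23787182-23787211 on the minus strand (Rps12). Those of Rps3a1 (chr3:86142670-86142699, minus strand), Rpl27 (chr11:101442225-101442254, plus strand), Rpl18 (chr7:45718062-45718091, plus strand), Rpl19 (chr11:98026903-98026932, plus strand) and Rpl22l1 (chr3:28805499-28805528, plus strand) are, like the others, centred on the run. A run of at least 8 bases was present for 32 of the 63 genes (50.8%), against 22.3% of the 27025 genes in the promoter table and 25.4% of 67 mitochondrial ribosomal protein genes. Among genes with a sequence, 17 of the 32 that rose at 40 mg/mL for 14 d had such a run (53.1%), and so did 14 of the 27 that were tested and not called (51.9%). The letters CCGGAA on either strand, the core of the ETS family's binding sequence, stood in the 300 bases of 50.8% of the 63 genes, against 16.7% of all genes in the table. It stood in 40.6% of the genes that rose and in 66.7% of those tested and not called, a difference that was not tested. TATAAA on either strand stood in 11.1% of them, against 15.7% of all genes. The annotated starts are not exact for every gene, so a missing run says only that these letters are not in this window.

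Ribosomal protein genes as a group took a larger share of the counts at 40 mg/mL for 14 d than in the controls of that duration. The summed probes of the 83 genes made up 1.97% ± 0.561 of a library at 40 mg/mL (SD, n = 8) and 1.11% ± 0.0701 in control livers (SD, n = 9). Single libraries at 40 mg/mL ran from 1.24% to 2.70% with a median of 2.11%, against 1.03% to 1.249% with a median of 1.11% in controls. This share is of the unscaled total, so it also moves when the most abundant features take less, as that of a typical feature does. The 20 most abundant features of a library held 14.7% ± 3.65 of its counts at 40 mg/mL and 22.5% ± 1.02 in controls. How much of the rise in share goes with this was not tested. Levels in CPM were scaled by TMM factors (a trimmed mean of log ratios between libraries), a method that sets aside a library's most extreme genes. On this scale the summed level of the 79 genes that passed the filter was 15700 ± 2167 CPM at 40 mg/mL and 12400 ± 483 CPM in controls. By this measure 7 of the 8 libraries at 40 mg/mL lay above all 9 controls, and replicate 4, at 12100 CPM, lay among them.

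**Figure D1:**
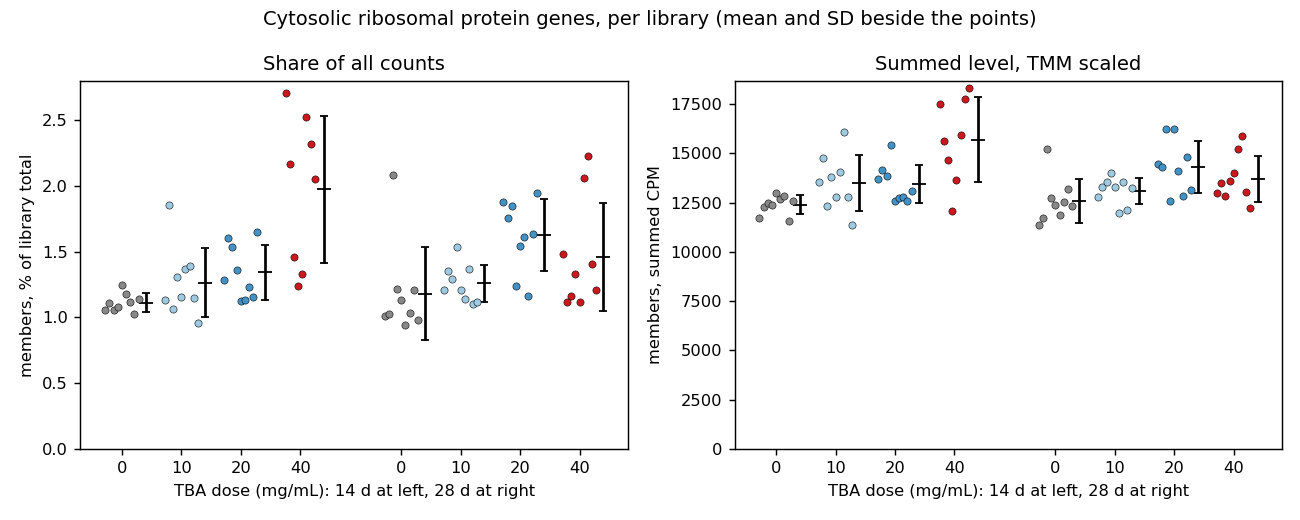
Summed counts of cytosolic ribosomal protein genes in each library, by dose of TBA in mg/mL at 14 d and 28 d. The left panel gives the 83 genes as a percentage of the library total. The right panel gives summed TMM-scaled CPM of the 79 genes that passed the filter on low counts. Points are libraries, and the mean with its SD stands beside them. The 40 mg/mL libraries at 14 d run from 1.24% to 2.70%, against 1.03% to 1.249% in controls.

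At 14 d the share was 1.11%, 1.26%, 1.34% and 1.97% at 0, 10, 20 and 40 mg/mL. At 28 d it was 1.18%, 1.26%, 1.62% and 1.46% at the same doses, so the highest mean at 28 d was at 20 mg/mL. The share in the 28 d controls rests in part on replicate 3, which held 2.08% where the other 8 controls held 0.941% to 1.22%. No p-value is given for these sums, since they are scores over the group.

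High TMM factors went with high shares. The shares are of unscaled totals, and a TMM factor is itself a trimmed mean of log ratios of such shares over many features. A high factor therefore means that the typical feature also takes a larger share, so this link is not particular to these genes. The mean TMM factor was 1.24 ± 0.247 at 40 mg/mL for 14 d and 0.897 ± 0.0336 in controls. Replicates 1, 2, 7 and 8 at 40 mg/mL had factors of 1.30 to 1.58 and shares of 2.16% to 2.70%. Replicates 3, 4 and 6 had factors of 0.978 to 1.03 and shares of 1.24% to 1.46%, and replicate 9 combined a factor of 1.12 with a share of 2.05%. After scaling, replicate 9 had the highest summed level of the group, 18330 CPM. Control replicate 3 at 28 d had a factor of 1.37.

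Markers of hepatocytes and of dividing cells also differed between these groups. Of 8 hepatocyte markers, 4 fell and 0 rose at 40 mg/mL for 14 d, and their summed level was 10210 to 41310 CPM in that group against 38680 to 56170 CPM in controls. In replicates 1, 2, 7 and 8 the sum was 10210 to 14540 CPM, and in control replicate 3 at 28 d it was 13100 CPM. All 5 markers of dividing cells rose, with a sum of 4.09 to 366 CPM at 40 mg/mL and 2.01 to 21.7 CPM in controls. At 40 mg/mL, replicates 1 and 7, with the highest shares of the group (2.70% and 2.52%), held 111 and 366 CPM of these markers. Replicates 2, 8 and 9, with shares of 2.05% to 2.32%, held 6.41, 4.92 and 4.09 CPM. Replicates 4 and 6, with the lowest shares (1.24% and 1.33%), held 39.6 and 95.6 CPM, and replicate 3, at 1.46%, held 7.56 CPM. Among 3 tested erythroid markers 1 rose, with a sum of 4.52 to 180 CPM against 15.9 to 41.4 CPM in controls. Of 8 stellate-cell and fibroblast markers 2 fell, and of 7 tested sinusoidal endothelial markers 1 fell. For Kupffer cells, cholangiocytes, T and NK cells, B and plasma cells and neutrophils, 0 markers were called. Replicates 8 and 9 at 40 mg/mL, with scaled ribosomal protein sums of 17780 and 18330 CPM, held 58.6 and 48.9 CPM of Kupffer-cell markers. Controls held 130 to 183 CPM, and the rest of that group 127 to 209 CPM. Endothelial sums in replicates 8 and 9 were 316 and 341 CPM, against 431 to 532 CPM in controls and 366 to 482 CPM in the rest. Stellate-cell sums there were 201 and 243 CPM, against 352 to 550 CPM and 249 to 397 CPM. The part of these markers in the ribosomal protein result was not tested. In whole liver, a change in the mix of cells and a change in RNA per cell cannot be told apart.

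At 40 mg/mL for 14 d, 41 of the 79 tested ribosomal protein genes rose and 0 fell at an adjusted p under 0.05 in edgeR's quasi-likelihood test. Across all 17050 tested features 2.84% rose and 3.68% fell. Of the 79 genes, 78 had a positive log2 fold change, with a median of 0.41 and a middle range of 0.31 to 0.53 (quartiles). The median log2 fold change over all tested features was 0.06. An unadjusted p under 0.05 was reached by 64 of the 79 genes, against 3236 of all 17050 features. The biological coefficient of variation had a median of 18.2% among ribosomal protein genes and 35.5% among all features. The 4 genes that failed the filter were Rpl3l, Rpl10l and Rpl39l, paralogs known from muscle or testis, and Rps16, whose single probe averaged 0.139 counts a library.

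**Figure D2:**
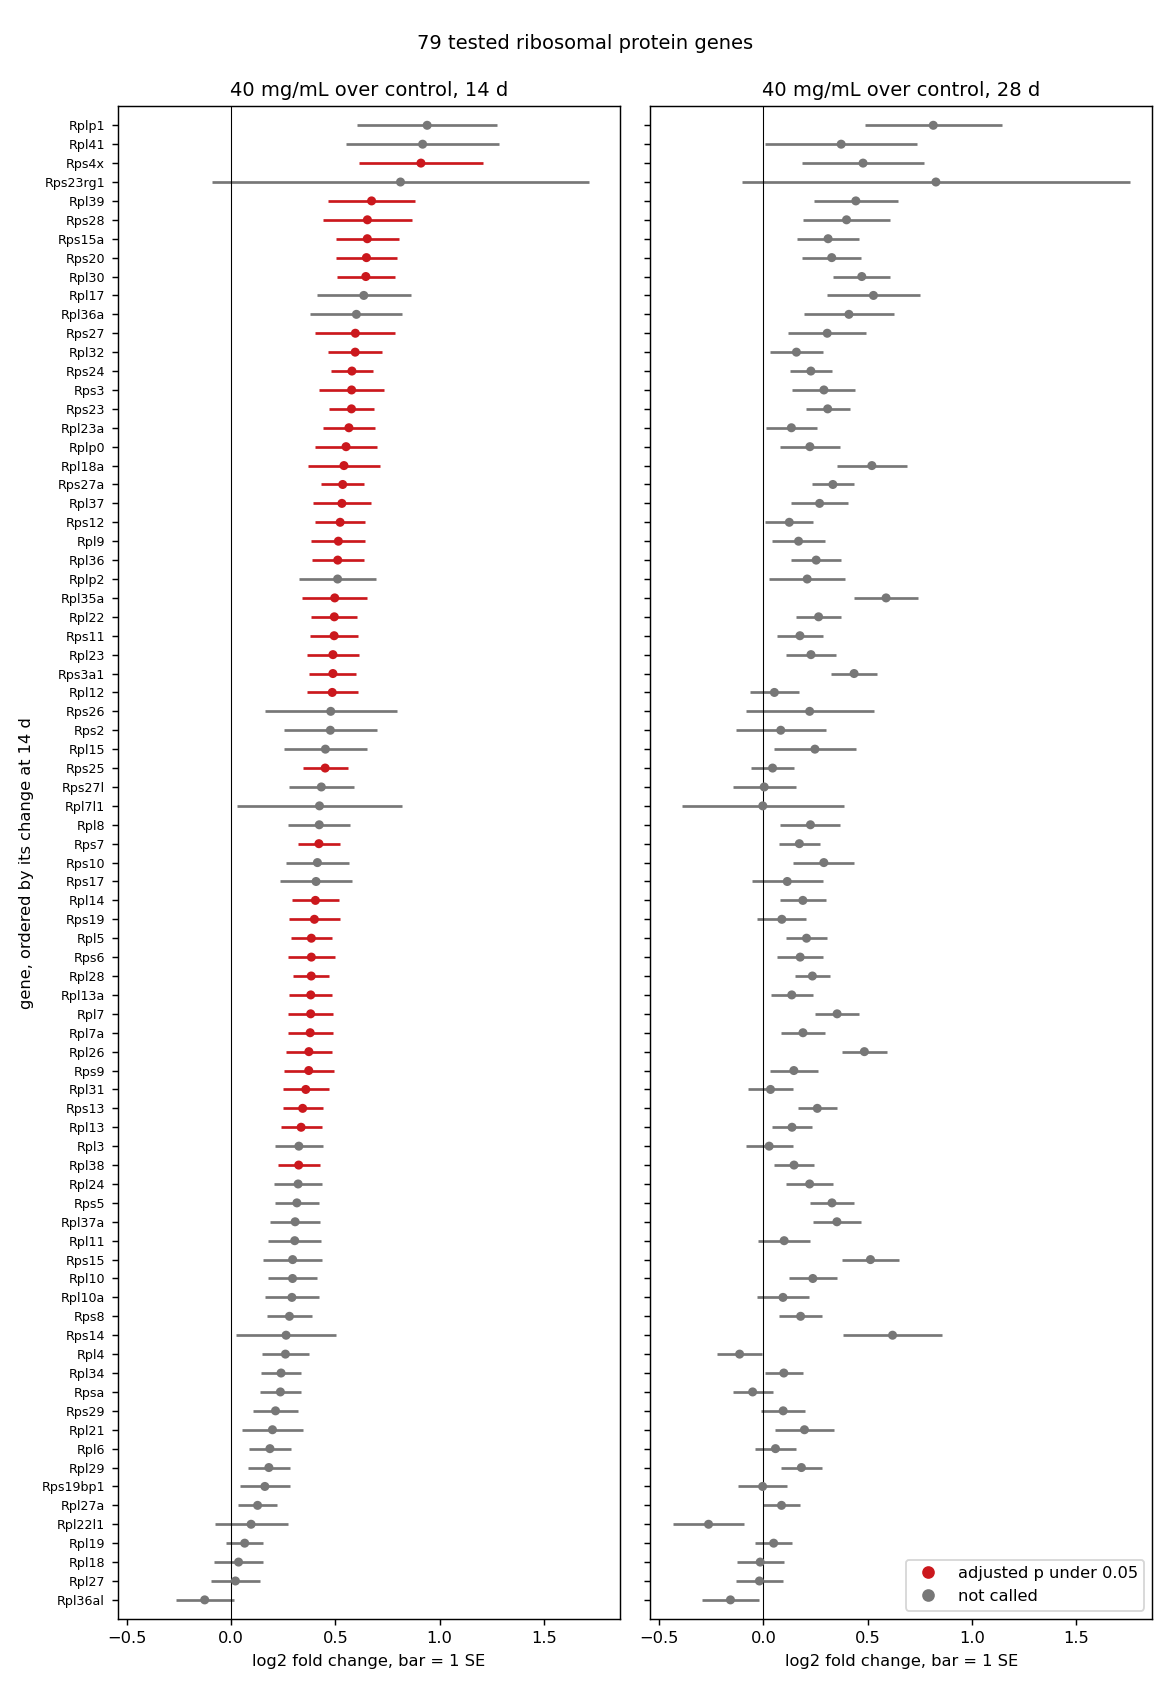
Log2 fold change with 1 SE for the 79 tested genes at 40 mg/mL over control, at 14 d (left) and 28 d (right), ordered by the change at 14 d. Red marks an adjusted p under 0.05, which 41 genes reached at 14 d and 0 at 28 d.

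The 3 smallest p-values belonged to small-subunit genes (Rps24, Rps23 and Rps27a) and the next 4 to large-subunit genes (Rpl30, Rpl32, Rpl28 and Rpl23a). Of the 28 tested small-subunit genes 18 rose, with a median log2 fold change of 0.46 over all 28, and all 28 changes were positive. Rps24, a small-subunit protein whose human counterpart is mutated in some Diamond-Blackfan anaemias, ran from 82.7 to 120 CPM with a median of 94.0 CPM at 40 mg/mL, against 52.6 to 74.98 CPM with a median of 65.7 CPM in controls. The groups did not overlap. Its log2 fold change was 0.58 ± 0.10 (SE; adjusted p = 0.000137), the smallest p among the ribosomal protein genes.

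Rps23, which lies near the decoding centre, ran from 192 to 386 CPM with a median of 274 CPM at 40 mg/mL, against 168 to 204 CPM with a median of 180 CPM in controls. Of the 8 libraries at 40 mg/mL, 6 were above all controls, and the log2 fold change was 0.58 ± 0.11 (adjusted p = 0.000358). Rps27a is made as a fusion with ubiquitin, so that its messenger RNA also supplies ubiquitin. It averaged 154 ± 30.6 CPM at 40 mg/mL and 106 ± 8.94 CPM in controls, with 7 of 8 libraries above all controls and a log2 fold change of 0.54 ± 0.10 (adjusted p = 0.000477).

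Rps20, a protein of the small-subunit head, averaged 57.9 ± 18.5 CPM at 40 mg/mL and 36.9 ± 2.41 CPM in controls (log2 fold change 0.65 ± 0.15, adjusted p = 0.00271). Rps3, which sits at the messenger RNA entry site, averaged 145 ± 41.9 CPM at 40 mg/mL and 97.5 ± 11.1 CPM in controls. Its log2 fold change of 0.58 ± 0.16 passed with an adjusted p of 0.0131, although 1 library at 40 mg/mL lay below all controls. Rps3a1, a protein of the small-subunit platform, rose by a log2 fold change of 0.49 ± 0.11 (adjusted p = 0.00367).

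Rps6, the substrate of the S6 kinases downstream of mTORC1, ran from 337 to 617 CPM with a median of 473 CPM at 40 mg/mL, against 331 to 407 CPM with a median of 373 CPM in controls. Its log2 fold change was 0.39 ± 0.11 (adjusted p = 0.0235), with 6 of 8 libraries above all controls. Rps19, the gene most often mutated in Diamond-Blackfan anaemia in people, rose by a log2 fold change of 0.40 ± 0.12 (adjusted p = 0.0297). Rps27 and Rps28, small proteins of the same subunit, rose by 0.60 ± 0.19 and 0.65 ± 0.21 (adjusted p = 0.0438 and 0.0491). Rps4x passed with the largest change among called genes, 0.91 ± 0.30 (adjusted p = 0.0469), at the low level of 4.24 ± 1.28 CPM at 40 mg/mL and 2.26 ± 0.728 CPM in controls. These last genes stand close to the threshold: leaving out 1 library in turn lost the call of Rps27 and Rps4x in 13 of 17 cases each, of Rps28 in 12, of Rps19 in 6 and of Rps6 in 3. Rpsa, which doubles as a laminin-binding protein, was not called at 0.24 ± 0.10 (adjusted p = 0.147).

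**Figure D3:**
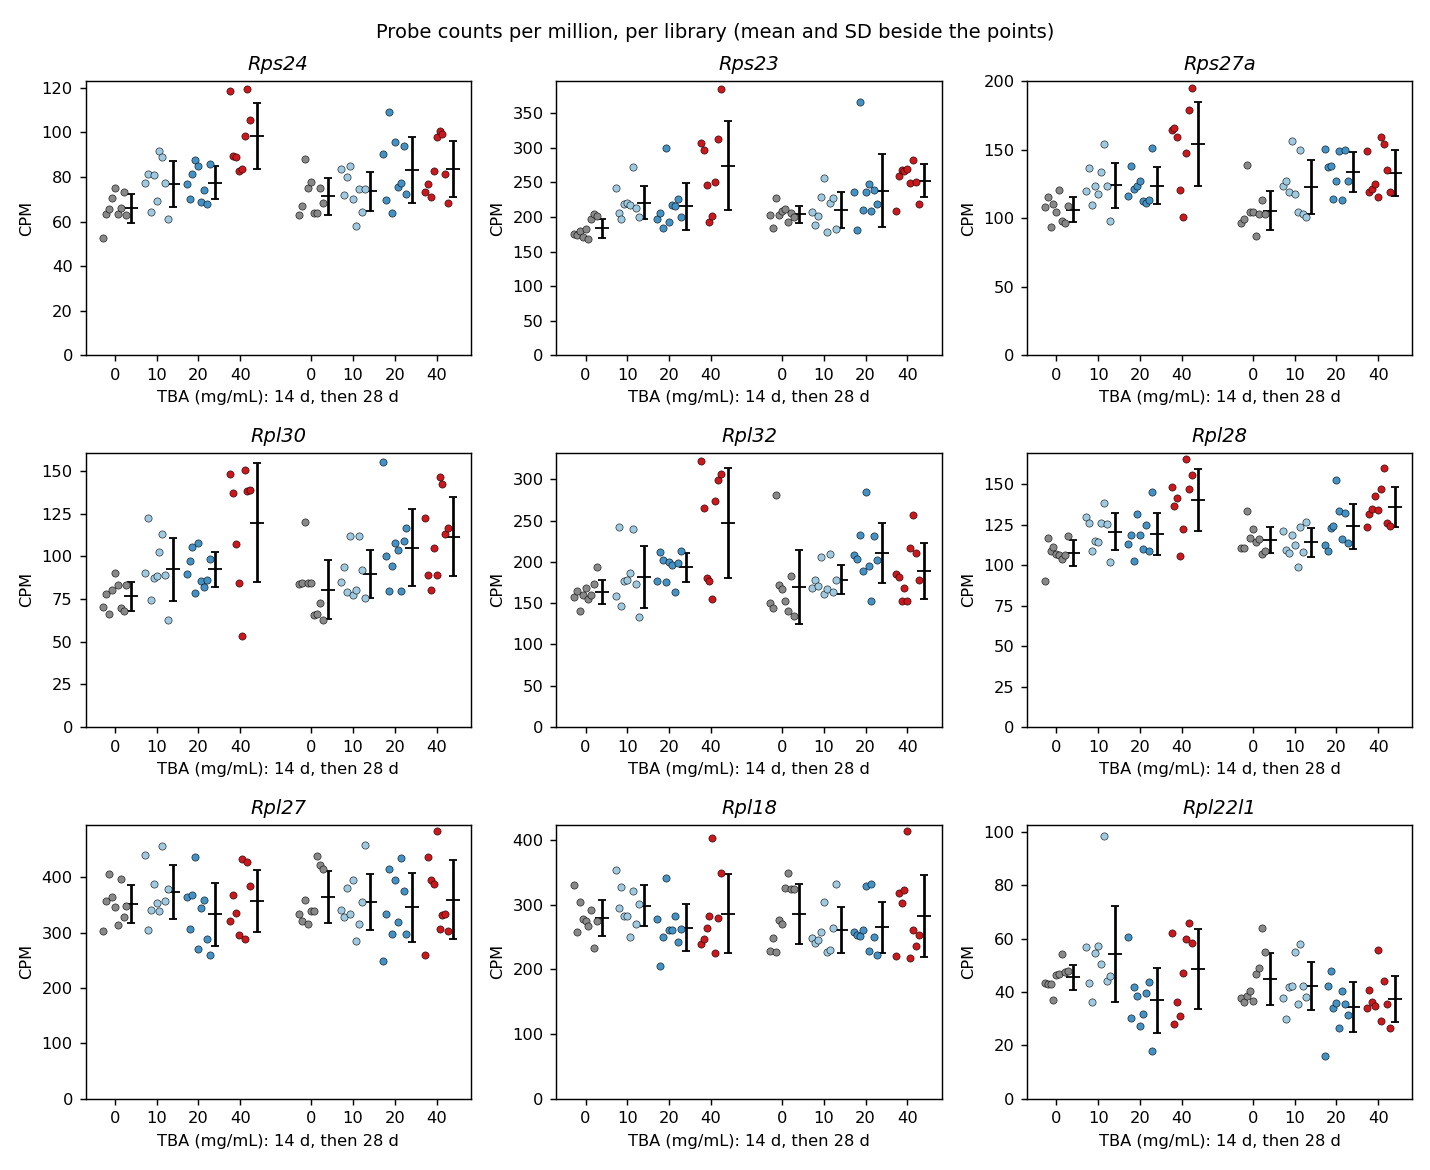
CPM of 9 genes in each library by dose of TBA, at 14 d and then 28 d, with the mean and SD beside the points. In the top 6 panels the 40 mg/mL libraries at 14 d reach above the controls, as for Rps24 with 82.7 to 120 CPM against 52.6 to 74.98 CPM, while Rpl27, Rpl18 and Rpl22l1 were not called.

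Of the 45 large-subunit genes 23 rose and 0 fell, with a median log2 fold change of 0.38 over all 45. The difference in counts between the subunits was not tested. Rpl30, a protein at the subunit interface, ran from 53.4 to 150 CPM with a median of 138 CPM at 40 mg/mL, against 66.1 to 90.4 CPM with a median of 77.9 CPM in controls. Of its 8 libraries at 40 mg/mL, 6 were above all controls and 1 below them, and the log2 fold change was 0.65 ± 0.14 (adjusted p = 0.00181). Rpl32 averaged 247 ± 66.3 CPM at 40 mg/mL and 164 ± 14.6 CPM in controls (log2 fold change 0.60 ± 0.13, adjusted p = 0.00182).

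Rpl28 changed less but more evenly. It ran from 106 to 166 CPM with a median of 145 CPM at 40 mg/mL, against 90.0 to 118 CPM with a median of 107 CPM in controls, and 7 of 8 libraries lay above all controls. Its log2 fold change was 0.38 ± 0.09 (adjusted p = 0.00231). Rpl23a, which lies at the exit of the peptide tunnel, averaged 209 ± 42.1 CPM at 40 mg/mL and 141 ± 15.6 CPM in controls (0.57 ± 0.13, adjusted p = 0.00257). Rpl39, a small protein inside that tunnel, rose by 0.67 ± 0.21 (adjusted p = 0.0339). That call was lost in 6 of the 17 leave-outs.

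Rpl5 and Rpl11 bind the smallest ribosomal RNA and, when ribosome assembly fails, the p53 regulator Mdm2. Rpl5 rose, at 252 ± 53.6 CPM at 40 mg/mL and 193 ± 22.1 CPM in controls (log2 fold change 0.39 ± 0.10, adjusted p = 0.00903). Rpl11 was not called at 0.31 ± 0.13 (adjusted p = 0.154), with 6 of 8 libraries above all controls and 1 below, and the difference between the genes was not tested. Rpl13a, part of a complex that silences inflammatory messenger RNAs in human cells, rose by 0.38 ± 0.10 (adjusted p = 0.0147). Rpl22 rose by 0.50 ± 0.11 (adjusted p = 0.00271), and its paralog Rpl22l1 was not called at 0.10 ± 0.17 (adjusted p = 0.837). Rpl22l1 ran from 28.1 to 66.1 CPM at 40 mg/mL, with 4 of 8 libraries above all controls and 3 below, against 37.2 to 54.3 CPM in controls. The difference between Rpl22 and Rpl22l1 was not tested, and with the log2 TMM factor as a covariate their order was the other way round (0.14 for Rpl22, adjusted p = 0.409, and 0.24 for Rpl22l1, adjusted p = 0.613).

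In the stalk, which draws elongation factors to the ribosome, Rplp0 rose by 0.55 ± 0.15 (adjusted p = 0.0142), with 133 ± 41.6 CPM at 40 mg/mL and 90.7 ± 11.2 CPM in controls. With the TMM factor as a covariate Rplp0 was at 0.06 (adjusted p = 0.874), it was not called without replicates 1 and 7, without the libraries of highest TMM factor or with limma (adjusted p = 0.160, 0.559 and 0.154), and its second probe was at 0.22 (adjusted p = 0.247). Rplp1 had the highest log2 fold change of all 79 genes, 0.94 ± 0.33, but at 5.25 ± 2.38 CPM at 40 mg/mL and 2.75 ± 1.36 CPM in controls it was not called (adjusted p = 0.0753). Rplp2 was not called either, at 0.51 ± 0.19 (adjusted p = 0.0851). Rpl3, at the catalytic centre, and Rpl10, a late-joining protein of the large subunit, were not called at 0.33 ± 0.12 and 0.30 ± 0.12 (adjusted p = 0.0768 and 0.129), nor was Rpl36a at 0.60 ± 0.22 (adjusted p = 0.0889).

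The subunit genes with the smallest changes, picked out after their values were seen, were Rpl27, Rpl18 and Rpl19. Rpl27 averaged 356 ± 55.8 CPM at 40 mg/mL and 351 ± 34.5 CPM in controls, a log2 fold change of 0.02 ± 0.12. The log2 fold change was 0.04 ± 0.12 for Rpl18 and 0.07 ± 0.09 for Rpl19. With the TMM factor as a covariate these values were 0.26 for Rpl27, 0.33 for Rpl18, which was then called (adjusted p = 0.0448), and 0.18 for Rpl19. For Rpl27 a second probe gave 0.31 ± 0.13 (adjusted p = 0.170), and the difference between its probes was not tested. Rpl36al, a copy of Rpl36a in another place of the genome, was the 1 gene with a negative value, -0.13 ± 0.14, and with the covariate it was at 0.29 (adjusted p = 0.127).

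Of 6 tested paralogs or other genes, 0 passed. Rps27l, a paralog of Rps27 and a p53 target, was not called at 0.43 ± 0.16 (adjusted p = 0.0790), and Rpl7l1 and Rps19bp1, a ribosome-assembly factor that carries the name of its partner, were at 0.42 ± 0.39 and 0.16 ± 0.12. Rps4l and Rps27rt were not measured under these names. Among 19 further probes of these genes that passed the filter, 7 rose and 0 fell. They included second probes of Rpl22 (0.43 ± 0.11, adjusted p = 0.00652), Rps19 (0.53 ± 0.10, adjusted p = 0.000416), Rpl13a (0.49 ± 0.14, adjusted p = 0.0220), Rpl32 (0.70 ± 0.19, adjusted p = 0.0130) and Rpsa (0.34 ± 0.11, adjusted p = 0.0385), which share their animals and libraries with the first probes. Further probes of genes whose first probe was called were not all called: Rplp0 (0.22, adjusted p = 0.247), Rps9 (0.21, adjusted p = 0.287), Rps13 (0.63, adjusted p = 0.0696), Rps6 (0.32, adjusted p = 0.0504) and Rpl13a (0.43, adjusted p = 0.0993) each had 1 that missed the threshold.

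The count at 40 mg/mL for 14 d moved with the libraries that entered and with the handling of composition. It was 25, 26 and 27 without replicate 1, 7 or 8 of that group. With the log2 TMM factor as a covariate 11 of 79 genes rose, 8 of them among the 41: Rpl5, Rpl14, Rpl28, Rpl38, Rps13, Rps23, Rps24 and Rps25. The other 3 were Rpl18, Rpl21 and Rps10. Without replicates 1 and 7 of that group 14 rose, all among the 41. Without the 11 libraries with the highest TMM factors of the series (1.26 to 1.58), of which 4 are in that group, 4 rose: Rpl5, Rps23, Rps24 and Rps27a. With the covariate, the log2 fold change was 0.43 for Rps24 (adjusted p = 0.0125), 0.55 for Rps23 (adjusted p = 0.00263), 0.39 for Rpl5 (adjusted p = 0.0203), 0.24 for Rpl23a (adjusted p = 0.282) and 0.21 for Rpl32 (adjusted p = 0.332). Rps3, Rps9, Rps27, Rps28, Rpl35a and Rpl39, all among the 41, had values below 0 there, between -0.13 and -0.01, with adjusted p from 0.752 to 0.988, and 60 of the 79 genes were positive. With library totals in place of TMM 77 genes rose, but the median of all features then shifted to 0.54. The shares of all features that rose or fell belong to the main fit, and none stand beside these alternative counts.

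**Figure D4:**
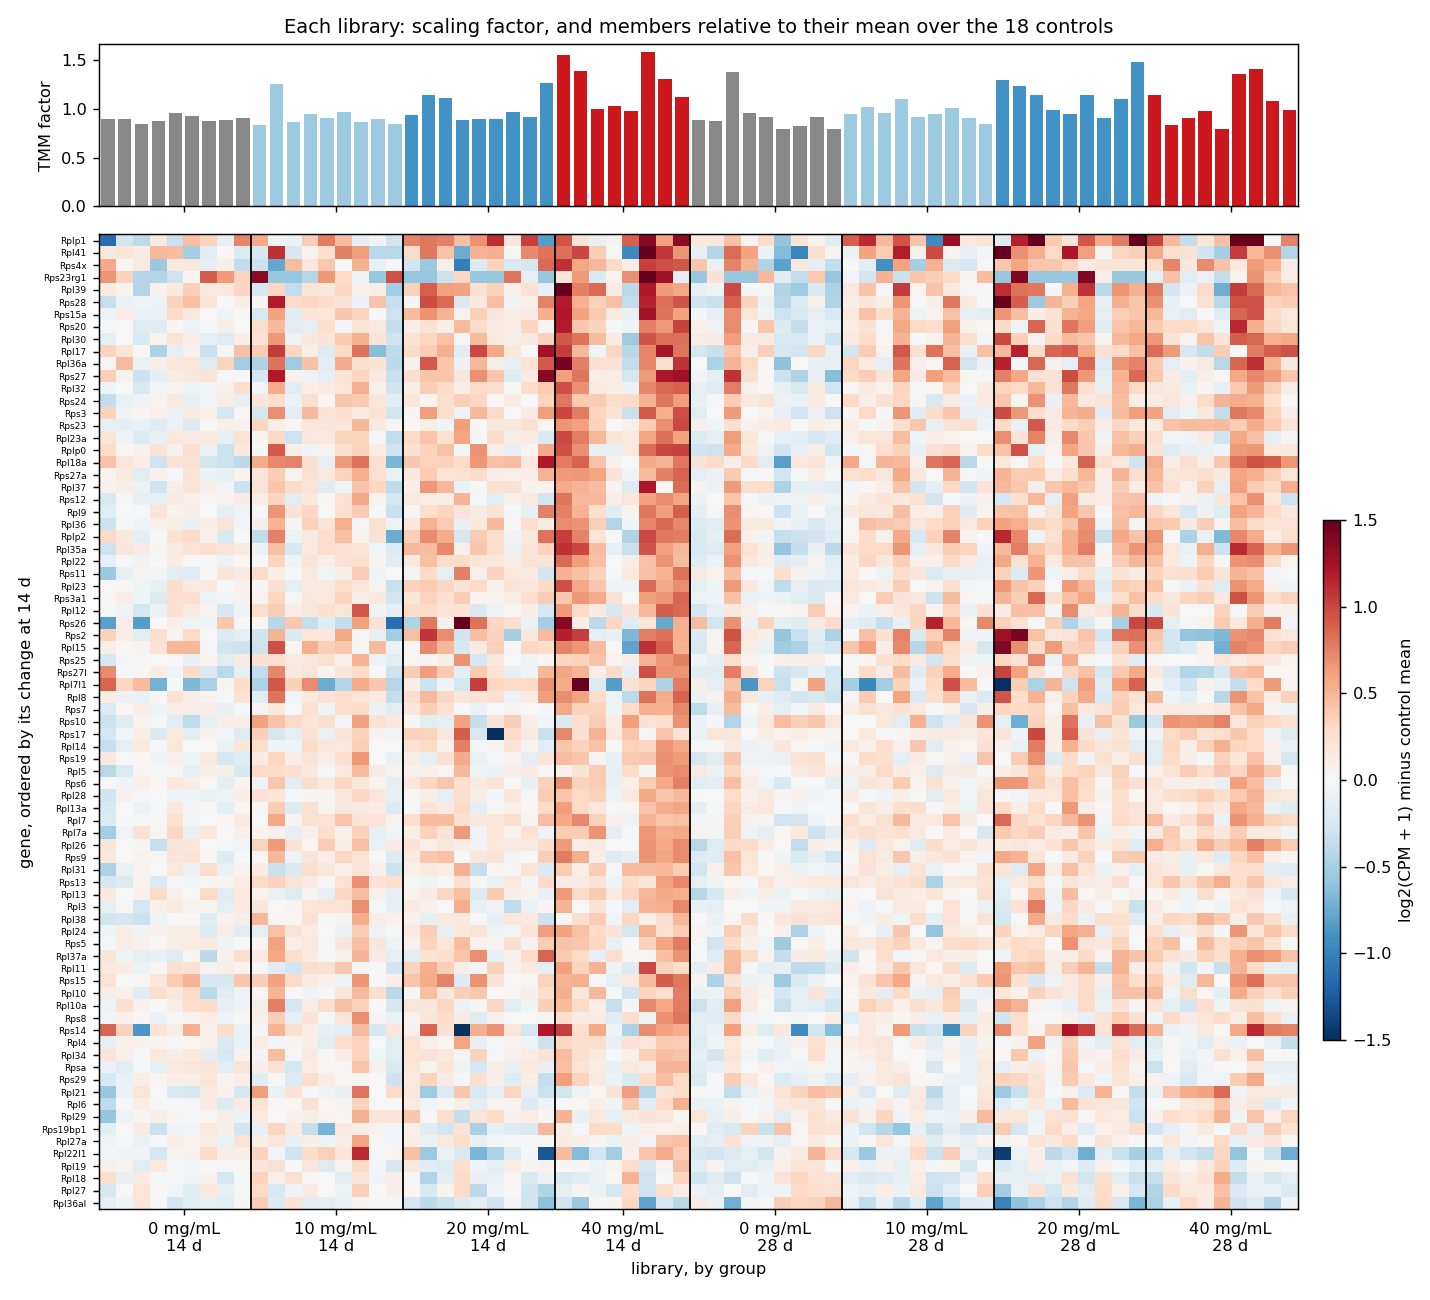
Each column is a library, grouped by dose and duration. The bars at the top are TMM scaling factors, and the colours show log2(CPM + 1) of each tested gene minus its mean over the 18 control libraries, with genes ordered by their change at 14 d. The 40 mg/mL libraries at 14 d with factors of 1.30 to 1.58 are red (higher) for many genes. So are replicate 9 of that group, with a factor of 1.12, and control replicate 3 at 28 d, with a factor of 1.37.

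Over the 71 libraries, with each group's mean removed, pairs of the 73 tested subunit genes had a median Pearson r of 0.35 on log2 CPM (quartiles 0.12 and 0.55), and 83.7% of 2628 pairs were positive. Pairs of 73 mitochondrial ribosomal protein genes had a median r of 0.04. Many of these were counted at lower levels than the cytosolic genes, and the part of level in r was not tested. All pairs share their libraries, depth and scaling factors. Rpl32 had the highest mean r with the other subunit genes, 0.49, and Rpl21 and Rpl18 the lowest, at -0.16 and -0.15.

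Across the 14 d doses, the linear trend rose for 43 of 79 genes and fell for 0, against 3.65% of all features that rose and 4.34% that fell. The trend uses the 40 mg/mL and control libraries again and is not a separate result. The median slope was 0.10 on the log2 scale per 10 mg/mL. Rps24 averaged 65.9 ± 6.66, 76.9 ± 10.4, 77.5 ± 7.60 and 98.4 ± 14.8 CPM at 0, 10, 20 and 40 mg/mL, a slope of 0.14 ± 0.02 (adjusted p = 0.000117). Rps23 and Rps27a had slopes of 0.13 ± 0.03 and 0.12 ± 0.02 (adjusted p = 0.000527 and 0.000571). The count was 3 without those 11 libraries, 6 with the covariate and 27 without replicate 1 at 40 mg/mL.

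At the lower doses for 14 d, edgeR called 0 ribosomal protein genes in either direction. At 20 mg/mL 14 of 79 had an unadjusted p under 0.05, against 1032 of all 17050 features. DESeq2 called 0 there, and the median log2 fold change was 0.18. At adjusted p, 0.0293% of all features rose and 0.00587% fell. At 10 mg/mL 16 of 79 had an unadjusted p under 0.05, against 736 of all 17050 features. DESeq2 called 0 there, and the median was 0.13. At adjusted p, 0% of all features rose and 0% fell. These comparisons share their control libraries with that at 40 mg/mL.

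At 28 d the ribosomal protein genes lay mostly above their controls without passing the test. At 40 mg/mL edgeR called 0 of 79, and 71 were positive with a median log2 fold change of 0.21. An unadjusted p under 0.05 was reached by 24, against 1078 of all 17050 features. At adjusted p, 0.00587% of all features rose and 0% fell there. DESeq2 called 3 higher and limma with quality weights 11, and edgeR 3 without control replicate 3 and 2 without replicate 5 at 40 mg/mL. Those shares belong to edgeR with all libraries and not to these other counts. Rpl26, a protein at the tunnel exit, ran from 36.7 to 51.8 CPM with a median of 42.4 CPM at 40 mg/mL, against 22.5 to 37.5 CPM with a median of 31.8 CPM in controls. With 8 of 9 libraries above all controls, its log2 fold change was 0.48 ± 0.11 (adjusted p = 0.0641). Rps24 averaged 83.5 ± 12.7 CPM at 40 mg/mL and 71.3 ± 8.37 CPM in controls (0.23 ± 0.10, adjusted p = 0.701). Rps23 averaged 253 ± 24.4 CPM at 40 mg/mL and 204 ± 12.1 CPM in controls (0.31 ± 0.11, adjusted p = 0.505), with 7 of 9 libraries above all controls.

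At 20 mg/mL for 28 d the count moved with single libraries. With all libraries edgeR called 0 genes, and the median log2 fold change was 0.23. An unadjusted p under 0.05 was reached by 45 of 79, against 2583 of all 17050 features. At adjusted p, 0.0645% of all features rose and 0.0938% fell. DESeq2 called 16 higher and 1 lower, and limma 21 higher and 1 lower. Without control replicate 3, 30 genes were called. Without replicate 7 of the 20 mg/mL group 15 were, and without replicate 4 of that group 1 was. The shares of all features belong to edgeR with all libraries, and none stand beside these other counts. Rps3a1, with the smallest p, averaged 105 ± 19.4 CPM at 20 mg/mL and 77.1 ± 11.6 CPM in controls (0.44 ± 0.11, adjusted p = 0.0613). At 10 mg/mL for 28 d edgeR called 0 genes, DESeq2 called 0 and limma 1 lower. An unadjusted p under 0.05 was reached by 10 of 79, against 707 of all 17050 features. At adjusted p, 0% of all features passed in either direction.

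The trend over the 28 d doses rose for 2 genes and fell for 0, against 0.0762% of all features that rose and 0.0528% that fell. Rpl26 averaged 30.4 ± 5.41, 31.9 ± 3.51, 34.0 ± 3.61 and 42.6 ± 4.55 CPM at 0, 10, 20 and 40 mg/mL (slope 0.12 ± 0.03, adjusted p = 0.0147). Rps3a1 averaged 77.1 ± 11.6, 85.7 ± 14.0, 105 ± 19.4 and 104 ± 21.3 CPM (slope 0.11 ± 0.03, adjusted p = 0.0428), and its call was lost in 17 of 36 leave-outs (that of Rpl26 in 1). The count of 2 became 0 without replicate 7 at 40 mg/mL and 4 without control replicate 3. Both genes also rose at 40 mg/mL for 14 d, Rpl26 by 0.37 ± 0.11 (adjusted p = 0.0236), a call lost in 5 of 17 leave-outs with adjusted p up to 0.0919.

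The direct test of the 40 mg/mL effect at 28 d against that at 14 d called 0 ribosomal protein genes, and DESeq2 called 0. At adjusted p, 0% of all features passed. An unadjusted p under 0.05 was reached by 10 of 79 genes, against 1081 of all 17050 features. The effect was smaller at 28 d for 71 of 79 genes, with a median difference of -0.21. So the count of 41 genes at 14 d and 0 at 28 d is not by itself a shown difference between durations. In the 28 d against the 14 d controls edgeR and DESeq2 called 0 genes, the median log2 fold change was -0.01, and 0% of all features passed. An unadjusted p under 0.05 was reached by 2 of 79 genes, against 516 of all 17050 features.

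Related gene groups were counted at 40 mg/mL for 14 d beside the 2.84% of all features that rose and the 3.68% that fell. Of 17 tested genes outside the ribosome with a TOP start or a role in translation, 2 rose (11.8%): Rack1, a scaffold protein on the small subunit (0.66 ± 0.21, adjusted p = 0.0429), and Hnrnpa1, an RNA-binding protein (0.38 ± 0.11, adjusted p = 0.0319). Eef1a1, the elongation factor that brings transfer RNA to the ribosome, and Tpt1 stayed just outside the threshold at 0.36 ± 0.12 and 0.82 ± 0.27 (adjusted p = 0.0506 and 0.0545). Of these 17, 13 were positive, with a median of 0.21.

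Of 49 tested genes of ribosome biogenesis 0 rose and 1 fell (2.04%), with a median of -0.04. The gene that fell was Fbl, the methyltransferase fibrillarin of the nucleolus, at 151 ± 28.4 CPM at 40 mg/mL and 205 ± 28.5 CPM in controls (-0.45 ± 0.12, adjusted p = 0.0131). Of 21 regulators of translation and growth 2 rose (9.52%). Tsc2, a brake on mTORC1, averaged 66.9 ± 16.2 CPM at 40 mg/mL and 50.6 ± 8.64 CPM in controls (0.41 ± 0.12, adjusted p = 0.0229). Ddit4, a stress-induced inhibitor of mTORC1, averaged 2.17 ± 3.01 CPM at 40 mg/mL and 0.285 ± 0.292 CPM in controls (2.89 ± 0.91, adjusted p = 0.0376), with 4 of 8 libraries above all controls.

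Of 73 tested genes for mitochondrial ribosomal proteins, which serve the separate ribosome of that organelle, 0 rose and 3 fell (4.11%, near the share of all features), with a median of -0.07. Mrpl39 averaged 69.1 ± 10.1 CPM at 40 mg/mL and 90.8 ± 5.20 CPM in controls (-0.39 ± 0.09, adjusted p = 0.00278), and all 8 libraries lay below all controls. Mrpl27 fell by 0.48 ± 0.12 (adjusted p = 0.00752) and Mrpl2 by 0.39 ± 0.12 (adjusted p = 0.0376) on the log2 scale. At 40 mg/mL for 28 d 0 genes of these lists were called.

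**Figure D5:**
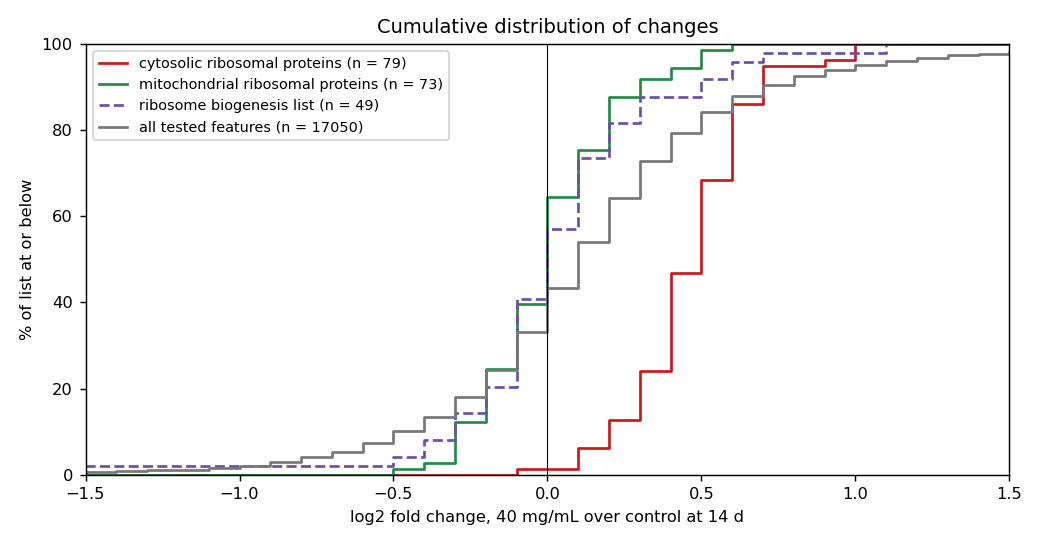
Cumulative distribution of log2 fold changes at 40 mg/mL over control at 14 d, for 79 cytosolic ribosomal protein genes, 73 mitochondrial ribosomal protein genes, 49 ribosome biogenesis genes and all 17050 tested features, in bins of 0.1. The curve of the cytosolic genes has its median at 0.41, against -0.07, -0.04 and 0.06.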

How the data were processed

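The authors deposited raw read counts per TempO-Seq probe (30146 probes, 21400 symbols). Per the submitters' processing notes, bcl2fastq 2.20 and Bowtie were used; the counting step, genome build and probe sequences are not given in the sources used here. A symbol is the probe name without its final number.

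Libraries under 100000 counts were left out. Probes passing filterByExpr over the 8 groups (17050) were tested with edgeR 4.0.16 in R 4.3.3: TMM scaling, robust quasi-likelihood fit with 1 mean per group, and Benjamini-Hochberg adjustment over all tested features, two-sided, at 0.05. The script was tested on simulated data, where it recovered large changes more often than small ones and missed part of them. DESeq2 1.42.0, limma 3.58.1 and other scalings, filters and leave-outs were alternatives. The labels give no batch or pairing. No library pair within a group was a duplicate (lowest chi-square per feature 6.62). Each animal is 1 replicate.

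Genes were named by rule: 28 always (9 of them paralogs or non-subunit genes), the 8 called genes with the smallest p at 40 mg/mL, 3 each way elsewhere, and up to 4 per companion list. Others, such as Rpl14, Rpl21, Rpl35a, Rpl38, Rps9, Rps10, Rps12, Rps13 and Rps25, were named after their values were seen. Members and lists were chosen with earlier results of these data known. Promoters are from RefSeq, GRCm38.p6.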

Additional observations from a re-analysis of the deposited data

Results flagged for a closer look

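Single libraries were compared with the rest of their group by Dixon's ratio for the summed levels in 8 groups and for 8 named genes in 4 groups. Of 48 such sets of values tested 9 were flagged, and chance flags about 1 in 20 sets. The sets share libraries, so their flags are not independent.

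Most of them were control replicate 3 at 28 d. It held 2.08% ribosomal protein counts where the next control held 1.22%, and a TMM-scaled sum of 15210 CPM where the next held 13200 CPM. In the same library Rpl32 was at 281 CPM (next 183), Rpl30 at 120 CPM (next 84.5), Rpl23a at 213 CPM (next 154) and Rps27a at 139 CPM (next 113). Its hepatocyte marker sum was 13100 CPM and its TMM factor 1.37. Without it 30 genes were called at 20 mg/mL for 28 d, against 0 with it.

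Replicate 2 at 10 mg/mL for 14 d held 1.85% (next 1.39%). Replicate 6 at 40 mg/mL for 28 d held 84.2 CPM of Rps20 (next 55.3). Control replicate 1 at 14 d had the lowest Rpl28, 89.98 CPM (next 104).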

How the results depend on the processing

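At 40 mg/mL for 14 d the count of 41 genes became 77 with library totals, 27 without a filter, 24 with the 2 groups alone, 14 with limma and also without replicates 1 and 7, 11 with the TMM factor as covariate, 4 without the 11 libraries of highest TMM factor (an alternative added after seeing the data) and 0 with the shallow library kept. Leaving out 1 library at a time gave 25 to 52. The 14 d trend (43) became 77 with library totals, 14 with limma, 10 without replicates 1 and 7, 6 with the covariate, 3 without high factors and 0 with the shallow library, with 27 to 53 over the leave-outs. At 40 mg/mL for 28 d the count of 0 became 3 with DESeq2, 11 with limma and 1 with the 5 CPM filter, the covariate, summed probes or without high factors, and 0 to 3 over the leave-outs. At 20 mg/mL for 28 d it became 17 with DESeq2, 22 with limma, 6 with library totals and 7 with the 5 CPM filter. It became 2 without replicates 1 and 7 of 40 mg/mL at 14 d, which are not in that comparison. It was 3 with summed probes and 26 without high factors, and 0 to 30 over the leave-outs. At 10 mg/mL for 28 d limma called 1. The 28 d trend (2) became 4 with DESeq2, 12 with limma, 5 with library totals, 1 without a filter, with its groups alone or without high factors, and 0 with the shallow library, with 0 to 4 over the leave-outs. The cause of these moves was not tested. No share of all features called stands beside these alternative counts, so whether they are particular to these genes is not shown. With the covariate 6 of the 41 turned negative: Rpl39, Rps3, Rps27, Rps28, Rpl35a and Rps9, at -0.095, -0.0159, -0.00953, -0.13, -0.104 and -0.0347. The share of 1.97% was 1.87% to 2.08% over the leave-outs. No call was made under any alternative at 10 or 20 mg/mL for 14 d, between durations or between controls. No paired analysis was possible because the labels pair no animals. Of the 83 genes 79 passed the filter on low counts, and the part of depth in the calls was not tested.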
